A study of Mus musculus with 2 samples.

Results

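Sox9, Lhx2, Nfatc1, Tcf7l1, Tcf7l2, Msx1 and Msx2 are transcription factors known from hair follicle stem cells and the early follicle. They were chosen by name, and each of the 7 symbols matched 1 row of both count tables, which list 27998 genes. The study compared the healed centre of a large skin wound (1.8 cm across, on the back of male wild-type C57BL/6J mice) with and without an agonist of the DNA sensor TLR9. WT_LW mice received PBS, as the sample labels and methods state (a control oligonucleotide is named in a legend), and TLR9agonist_LW mice received the CpG oligonucleotide ODN2395. Both were treated on days 0, 3 and 6 after wounding, and skin was collected 2 days after the scab came off. Each group was 1 single-cell library of cells pooled from several mice. A single library stands for each treatment, so differences have no replicate check and no p-value is given, and a difference between the treatments, the mice or the cell preparations cannot be told apart.

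Hair follicles hold their stem cells in the bulge, a niche below the sebaceous gland that is marked by Krt15 and Cd34. Sox9 specifies and maintains these cells, and Lhx2 holds them in an undifferentiated state. Nfatc1 acts downstream of calcineurin and keeps bulge cells quiescent. Tcf7l1 and Tcf7l2 bind the target genes of Wnt signalling. Tcf7l1 is known mainly as a repressor of them, and Tcf7l2 activates them with beta-catenin. Msx1 and Msx2 are paired homeobox factors that act in the placode, the hair matrix and the mesenchyme of many organs. In wound-induced hair neogenesis, follicles form anew from epidermal cells in the centre of large wounds.

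After filtering and removal of predicted doublets, the WT_LW library held 10395 cells with 85324137 UMIs and the TLR9agonist_LW library 11811 cells with 110983734 UMIs (unique molecular identifiers, each counted as 1 captured RNA molecule). The libraries shared 47 of their 12800 and 13751 deposited barcodes. Keratinocytes were 611 of the cells in WT_LW (5.88%, 95% interval 5.43 to 6.35) and 1333 in TLR9agonist_LW (11.3%, 10.7 to 11.9). They held 12.2% and 27.1% of the UMIs, and the median keratinocyte held 11620 and 22724 UMIs. Levels are given as UMIs of the gene per 1000000 UMIs of the same cells (CPM). Class and subset names stand for gates on marker genes. Intervals are exact 95% Poisson intervals for counts and levels and exact binomial (Clopper-Pearson) intervals for shares, and they cover counting error only. A lower level in a class can be fewer cells with the RNA or less RNA per cell, so shares of cells are given beside levels.

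The 7 factors did not share a cell type. In WT_LW, keratinocytes held 56.2% of the Sox9 UMIs and 63.2% of the Lhx2 UMIs, but only 5.94% of those of Nfatc1, 8.50% of Tcf7l2, 3.399% of Tcf7l1, 2.85% of Msx1 and 22.5% of Msx2. In TLR9agonist_LW the keratinocyte shares were 63.2%, 59.2%, 10.2%, 11.0%, 2.92%, 7.87% and 45.6% in the same order of genes. Only for Sox9 and Lhx2 did keratinocytes have the highest level among the 9 classes with at least 50 cells in each library, in both libraries. These 2 values depend on the keratinocyte gate, which was widened after Sox9-rich and Lhx2-rich cells were seen outside it. Under the first gate, a score from all markers only, keratinocytes held 42.9% and 59.8% of the Sox9 UMIs and 47.4% and 38.8% of the Lhx2 UMIs, and Lhx2 in TLR9agonist_LW was higher in pericytes (0.78 CPM) than in keratinocytes (0.65 CPM). Under both gates most RNA of the other 5 factors lay outside keratinocytes in both libraries.

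**Figure D1:**
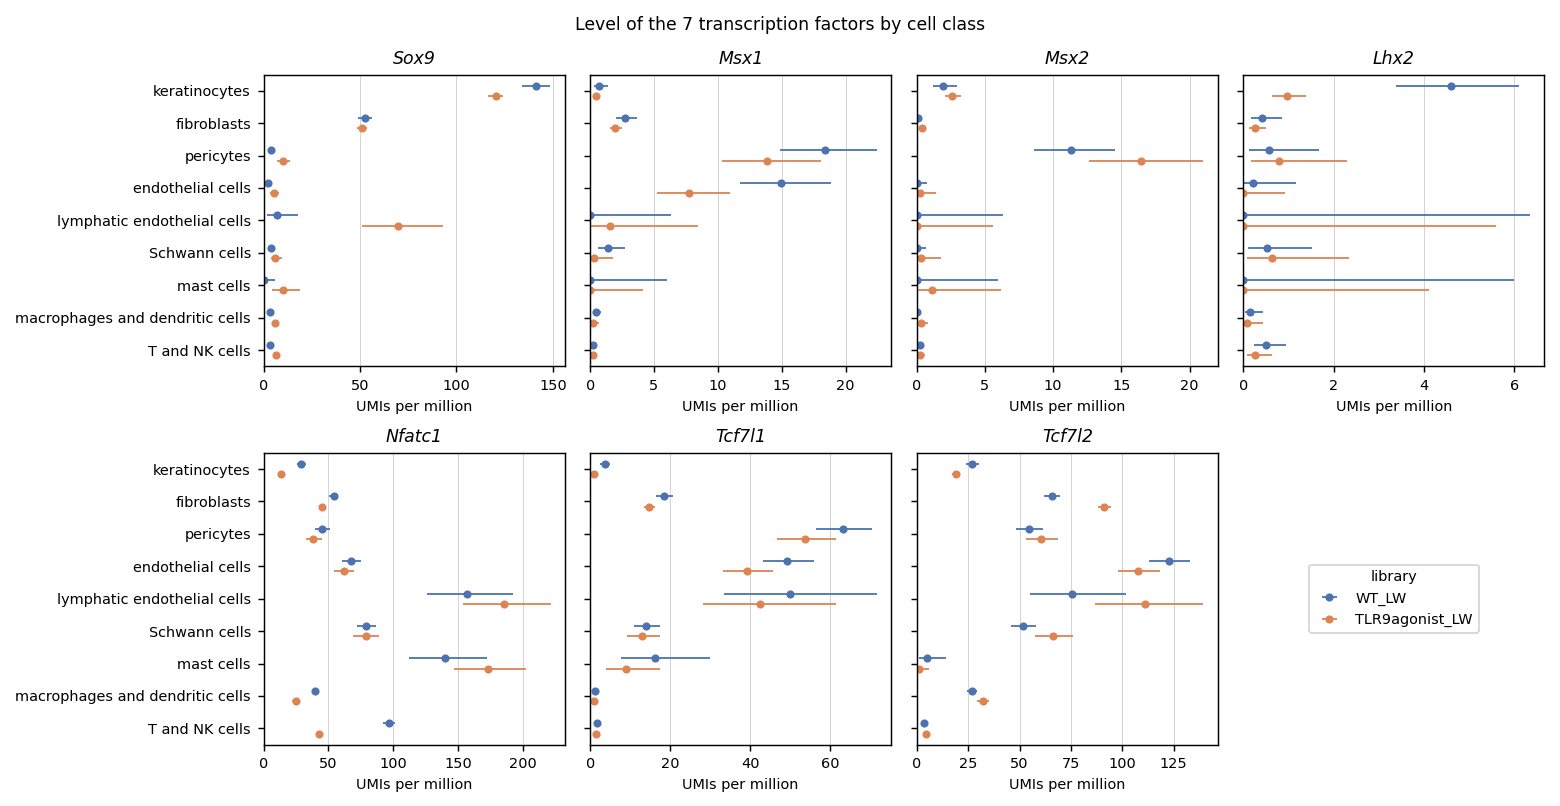
Level of each factor (CPM, horizontal axis, linear and different for each gene) in 9 cell classes of WT_LW (blue) and TLR9agonist_LW (orange), with exact 95% Poisson intervals as lines. Sox9 and Lhx2 are highest in keratinocytes, Msx1, Msx2 and Tcf7l1 in pericytes, Tcf7l2 in WT_LW in endothelial cells, and Nfatc1 in lymphatic endothelial and mast cells.

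Sox9 was the most abundant of the 7 in keratinocytes. Over all cells it was at 30.8 CPM in WT_LW against 51.6 in TLR9agonist_LW, with a log2 ratio (TLR9agonist_LW over WT_LW, as throughout) of 0.75 (interval 0.68 to 0.81). The change of 20.9 CPM was split into the part from levels within the cell classes and the part from the classes' shares of the UMIs. The share part was 23.5 CPM, of which keratinocytes gave 19.5 CPM and fibroblasts 5.54 CPM, and the within-class part was −2.64 CPM. The higher Sox9 level of the whole TLR9agonist_LW library thus went with more keratinocyte and fibroblast RNA, not with a higher level in either class as a whole.

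Within all keratinocytes Sox9 was at 141 CPM in WT_LW (1474 UMIs) and 120 CPM in TLR9agonist_LW (3621 UMIs), at a log2 ratio of −0.23 (−0.32 to −0.14). The sign of this value depended on the scaling and its size on the gate. The median gene of keratinocytes had a log2 ratio of −0.44, and relative to it Sox9 was at 0.21. With the first gate, the score from all markers only, which left out part of the follicle-like and cycling cells, the ratio was 0.00 (−0.10 to 0.10).

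Keratinocyte subsets showed what the whole class did not. Keratinocytes were put into subsets by the leading one of 8 marker lists, none of which holds any of the 7 factors. In interfollicular-type cells (basal, suprabasal and wound-stress together) Sox9 was at 68.3 CPM in WT_LW (62.6 to 74.4) and 106 CPM in TLR9agonist_LW (102 to 110). The log2 ratio there was 0.63 (0.50 to 0.77), which is 1.55-fold, while the median gene of these cells was at −0.38. In follicle-type cells (bulge-like and upper follicle-like together) Sox9 was at 415 CPM in WT_LW against 401 in TLR9agonist_LW (log2 ratio −0.05, interval −0.23 to 0.13). Follicle-type cells were 108 of 611 keratinocytes in WT_LW (17.7%, 14.7 to 20.9) and 68 of 1333 in TLR9agonist_LW (5.10%, 3.98 to 6.42). Among keratinocytes, the change of −21.0 CPM in Sox9 was a within-subset part of 27.1 CPM and a share part of −48.1 CPM, so the 2 parts had opposite signs. These shares, levels and parts rest on the widened gate, which was set after Sox9-rich and Lhx2-rich cells had been seen outside the first. The first gate held 545 keratinocytes with 1126 Sox9 UMIs in WT_LW and 1287 with 3424 in TLR9agonist_LW. Follicle-type shares under the first gate are not given here.

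Basal cells, which carry Krt5, Krt14 and the hemidesmosome integrins, had Sox9 at 107 CPM in WT_LW against 161 in TLR9agonist_LW (log2 ratio 0.59, interval 0.39 to 0.80). Suprabasal cells, marked by Krt1 and Krt10, had 54.6 and 90.2 CPM (log2 ratio 0.72, interval 0.52 to 0.93). Wound-stress cells, marked by Krt6a, Krt6b and Krt16, had 36.4 CPM from 29 UMIs and 90.2 CPM from 808 UMIs (log2 ratio 1.31, interval 0.78 to 1.90). One basal cell of WT_LW held 52 of its subset's 246 Sox9 UMIs, and without the top cell of each library the basal levels were 86.4 and 151 CPM. In these 3 subsets, none of them gated on follicle genes, the level was higher in TLR9agonist_LW and the intervals of the libraries did not overlap.

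Upper follicle-like cells, marked by Krt79, Krt17 and Cst6, had Sox9 at 374 and 424 CPM (log2 ratio 0.18, interval −0.04 to 0.40). Plet1, also on their marker list, was not higher in them (555 CPM over both libraries, against 585 CPM in the other keratinocytes). Bulge-like cells (Krt15, Ptn, Postn, Cd34) had 474 CPM in 43 cells of WT_LW and 309 CPM in 20 cells of TLR9agonist_LW (log2 ratio −0.62, interval −1.02 to −0.23). Over both libraries Postn was detected in 96.8% of the bulge-like cells, Ptn in 82.5%, Krt15 in 79.4% and Barx2 in 66.7%. The rest of their marker list was scarcer, with Cd34 in 27.0%, Dkk3 in 23.8%, Lgr5 and Cd200 in 22.2% each and Fgf18 in 4.76%. The Sox9 levels of the bulge-like cells, too, rest on the widened gate. A single bulge-like cell held 20.9% of the Sox9 UMIs in WT_LW and another held 24.6% in TLR9agonist_LW, and without them the levels were 391 and 241 CPM. At a like depth of 10000 to 30000 UMIs per cell the log2 ratio of bulge-like cells was −1.28. It rests on only part of the 43 and 20 cells, and its interval is not given here. Follicle-type cells together went the other way at this depth, with 407 CPM in 56 cells of WT_LW and 465 CPM in 36 cells of TLR9agonist_LW. Cycling cells had 201 and 133 CPM (log2 ratio −0.60, interval −0.83 to −0.35), which was 0.02 with the score from all markers only. In WT_LW the Sox9 levels of these 6 subsets ran from bulge-like over upper follicle-like, cycling, basal and suprabasal to wound-stress cells. The intervals of neighbours in this order were apart except for suprabasal (48.1 to 61.8 CPM) and wound-stress cells (24.4 to 52.2 CPM), and those of bulge-like cells (419 to 534 CPM) and upper follicle-like cells (333 to 419 CPM) just met. In TLR9agonist_LW upper follicle-like cells (382 to 469 CPM) came before bulge-like cells (240.1 to 391 CPM), with overlapping intervals. Basal cells (161 CPM) came before cycling cells (133 CPM) there, with intervals apart, and the intervals of suprabasal and wound-stress cells overlapped.

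**Figure D2:**
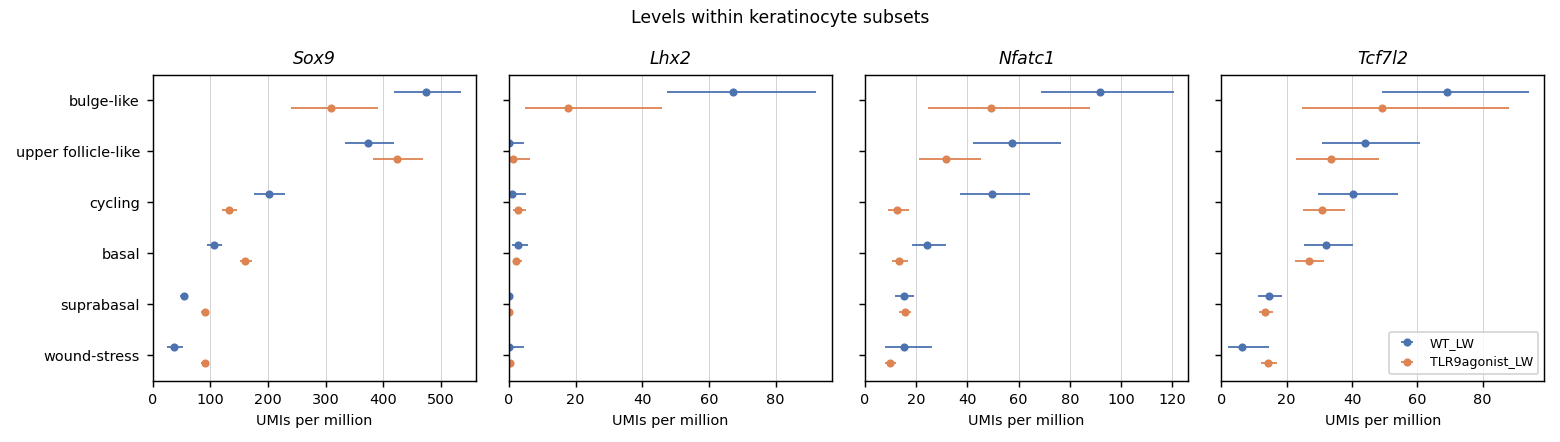
Levels of Sox9, Lhx2, Nfatc1 and Tcf7l2 (CPM, horizontal axis, linear and different for each gene) in 6 keratinocyte subsets of WT_LW (blue) and TLR9agonist_LW (orange), with exact 95% Poisson intervals. Sox9 is higher in TLR9agonist_LW in basal, suprabasal and wound-stress cells and lower in bulge-like and cycling cells, while Lhx2 is near 0 outside bulge-like cells. All levels are those of the widened keratinocyte gate, without matching for depth. The Sox9 difference in cycling cells was not seen with the score from all markers only. In wound-stress cells of like depth Sox9 was at 84.9 and 84.5 CPM.

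The depth of the cells and RNA from outside them moved with these values. Interfollicular-type cells held a median of 11237 UMIs in WT_LW and 22314 in TLR9agonist_LW. Among those with 10000 to 30000 UMIs (medians 21204 and 21484), Sox9 was detected in 60 of 134 cells (44.8%) and in 336 of 539 cells (62.3%), at 76.3 and 121 CPM (log2 ratio 0.67, interval 0.46 to 0.89). In the wound-stress subset only 9 WT_LW cells had such a depth. There the levels were 84.9 CPM from 12 UMIs and 84.5 CPM from 171 UMIs, while Sox9 was detected in 3 of 9 cells (33.3%) and 53 of 96 cells (55.2%). As a measure of free RNA, T and NK cells held Sox9 at 3.402 and 6.62 CPM and keratinocyte markers at a summed 925 and 3764 CPM. Both were higher in TLR9agonist_LW. In interfollicular-type cells markers of T and NK cells summed to 108 and 71.5 CPM and fibroblast markers to 1630 and 1467 CPM. By subset the fibroblast sum was lower in TLR9agonist_LW in basal cells (2405 and 1331 CPM) and higher in suprabasal cells (1348 and 1642 CPM) and wound-stress cells (1014 and 1336 CPM), and the median over all interfollicular-type cells was 1088 and 1169 CPM. The part of RNA from other cells in the Sox9 difference was not tested.

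Thinned to 1500 UMIs per cell, 41 of 415 interfollicular-type cells of WT_LW carried a Sox9 UMI (9.88%, 7.18 to 13.2) and 171 of 1098 of TLR9agonist_LW (15.6%, 13.5 to 17.9). Shallower cells, 32 and 69 in number, were left out, and without thinning the shares were 31.1% and 59.2%. In follicle-type cells the thinned shares were 34.7% and 44.6%, with overlapping intervals. The share in T and NK cells was 0.648% and 1.18% at the same depth (medians of 4299 and 4563 UMIs before thinning), so the keratinocyte shares lay far above that background.

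**Figure D3:**
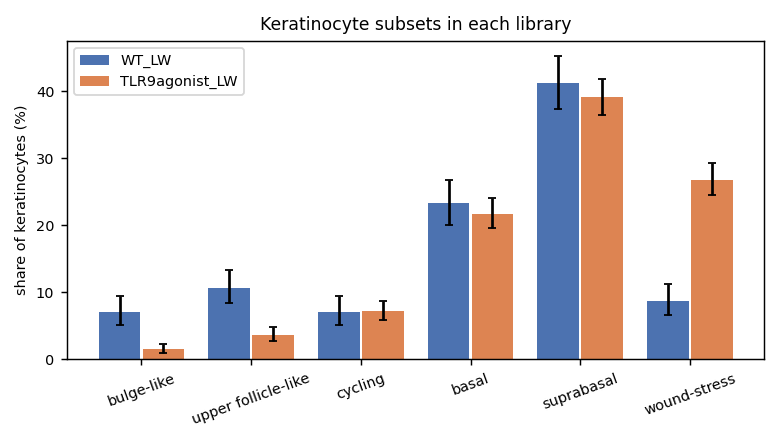
Share of the keratinocytes of each library (vertical axis, percent) in 6 subsets, WT_LW in blue and TLR9agonist_LW in orange, with exact 95% binomial intervals as error bars. Bulge-like and upper follicle-like cells are a smaller share in TLR9agonist_LW, and wound-stress cells are 8.67% of keratinocytes in WT_LW and 26.8% in TLR9agonist_LW. All shares are those of the widened keratinocyte gate.

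Fibroblasts held 33.3% of the Sox9 UMIs in WT_LW and 29.9% in TLR9agonist_LW. Their level was 52.4 CPM in WT_LW against 51.0 in TLR9agonist_LW (log2 ratio −0.04, interval −0.16 to 0.08), and 0.24 relative to their median gene. Upper wound fibroblasts, gated on Crabp1, Prss35 and Grem1, had 53.0 and 62.3 CPM (log2 ratio 0.24, interval 0.05 to 0.43), and 0.47 relative to their median gene. Deep wound fibroblasts, gated on Clec3b, Angptl1 and Cilp, had 50.9 and 40.4 CPM (log2 ratio −0.33, interval −0.51 to −0.16), and relative to their median gene −0.02. Sox9 was thus present in wound fibroblasts of both libraries at a level well above that of T and NK cells.

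Lhx2 was the rarest of the factors. In WT_LW most of its keratinocyte UMIs lay in bulge-like cells, and in TLR9agonist_LW basal cells held the most of them (13 of 29). Keratinocytes had 48 Lhx2 UMIs in WT_LW (4.60 CPM, 3.39 to 6.10) and 29 in TLR9agonist_LW (0.96 CPM, 0.65 to 1.38), at a log2 ratio of −2.26 (−2.97 to −1.56). Under the widened gate, 38 of these UMIs lay in 7 of 43 bulge-like cells of WT_LW, at 67.2 CPM, and 4 lay in 3 of 20 bulge-like cells of TLR9agonist_LW, at 17.9 CPM. One WT_LW cell held 12 of the 38 UMIs, so the ratio in these cells, −1.91 (−3.86 to −0.44), rests on very few cells. Among keratinocytes with 10000 to 30000 UMIs the log2 ratio of Lhx2 was −0.21 (−1.44 to 1.16), an interval that included 0, and under the first gate it was −2.53 (−3.41 to −1.69) from 36 and 19 UMIs. Basal cells had 6 and 13 UMIs, at 2.61 and 2.26 CPM. The within-subset part of the Lhx2 change in keratinocytes was −1.32 CPM and the share part −2.31 CPM. Every keratinocyte with an Lhx2 UMI also carried Sox9, 13 of 13 in WT_LW and 15 of 15 in TLR9agonist_LW, and under the first gate 9 of 9 and 11 of 11. Sox9 was found in 260 of 611 and 817 of 1333 keratinocytes. Deeper cells show more genes of every kind, and depth was not matched for this count. In T and NK cells Lhx2 was at 0.49 and 0.27 CPM, so the TLR9agonist_LW keratinocyte level of 0.96 CPM was not far above the background.

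Fibroblast markers summed to 8946 CPM in the bulge-like cells of WT_LW and to 2111 CPM in those of TLR9agonist_LW, while their medians over cells were 1176 and 1806 CPM, so a minority of the WT_LW cells held most of them. The part of this RNA in the bulge-like values was not tested. One WT_LW cell led by hair germ and matrix markers held 64 Sox9 UMIs and 2 Lhx2 UMIs, the highest Sox9 count of any keratinocyte there, and it was kept apart from the bulge-like cells. The 11 lipid-making cells (9 and 2) had Sox9 at 406 and 490 CPM.

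Nfatc1 was a broadly expressed gene in this wound. The highest levels were in lymphatic endothelial cells (157 CPM in WT_LW, 185 CPM in TLR9agonist_LW) and mast cells (140 and 173 CPM), whose intervals overlapped in each library. Next came T and NK cells in WT_LW at 96.2 CPM, with Schwann cells at 79.0 CPM, endothelial cells at 67.3 CPM and fibroblasts at 54.0 CPM. In TLR9agonist_LW T and NK cells were at 42.9 CPM (log2 ratio −1.16, interval −1.29 to −1.04), against −0.27 for the median gene of these cells. Macrophages and dendritic cells had 39.99 and 24.6 CPM (log2 ratio −0.70, interval −0.89 to −0.51). Schwann cells were at 78.7 CPM and endothelial cells at 61.6 CPM in TLR9agonist_LW, with log2 ratios of −0.01 (−0.24 to 0.22) and −0.13 (−0.37 to 0.12). Fibroblasts were at 44.7 CPM (log2 ratio −0.27, 0.01 relative to their median gene). The lower Nfatc1 level in TLR9agonist_LW thus exceeded the shift of the median gene in T and NK cells, in macrophages and dendritic cells and in keratinocytes as a whole (values below), and not in fibroblasts.

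Over all cells Nfatc1 was at 59.6 and 36.8 CPM, a change of −22.8 CPM with a within-class part of −18.4 CPM. T and NK cells gave −10.2 CPM of that part. Within keratinocytes it was at 28.9 CPM from 302 UMIs and 13.8 CPM from 416 UMIs (log2 ratio −1.07, interval −1.28 to −0.85), or −0.62 relative to the median gene. These values and those of the subsets rest on the widened gate. Under the first gate Nfatc1 in keratinocytes was at 24.6 CPM from 236 UMIs and 13.6 CPM from 397 UMIs, and its subset levels under that gate are not given here. By subset, bulge-like cells were highest with 92.0 CPM (68.7 to 121) and 49.2 CPM (24.6 to 88.0), followed by upper follicle-like cells with 57.5 and 31.5 CPM. Cycling cells had 49.4 and 12.6 CPM (log2 ratio −1.97, interval −2.61 to −1.35), and basal cells 24.3 and 13.4 CPM (log2 ratio −0.86, interval −1.38 to −0.34). Suprabasal cells had 15.01 and 15.5 CPM, with a log2 ratio of 0.05 (−0.36 to 0.47). Interfollicular-type cells together were at a log2 ratio of −0.44 (−0.74 to −0.15), or −0.07 relative to their median gene. In contrast to Sox9, both parts of the Nfatc1 change among keratinocyte subsets had 1 sign, −10.1 CPM within subsets and −5.00 CPM from their shares. T and NK cells held more Nfatc1 than keratinocytes in both libraries, so they give no background for this gene, and the part of free RNA in the keratinocyte levels was not tested.

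Promoter sequence from RefSeq (GRCm38.p6) was matched by symbol and kept for 5 of the 7 factors (all but Sox9 and Nfatc1), in 7 windows. Any window on 1 chromosome was left out by a fixed rule, so a factor without a window here need not lack one in RefSeq. The 250 bases before the start site are shown for Msx1 and Msx2, whose levels were highest in the same class, and for the Tcf7l2 start whose window holds a match to the TCF/LEF motif that Tcf7l2 itself binds. Capitals mark matches to CTTTGNT (the TCF/LEF core) and to TAATTN (a homeobox core) on either strand. The windows are chr5:37824586-37824835 on the minus strand for Msx1, chr13:53472781-53473030 on the minus strand for Msx2 and chr19:55895071-55895320 on the plus strand for Tcf7l2.
Msx1: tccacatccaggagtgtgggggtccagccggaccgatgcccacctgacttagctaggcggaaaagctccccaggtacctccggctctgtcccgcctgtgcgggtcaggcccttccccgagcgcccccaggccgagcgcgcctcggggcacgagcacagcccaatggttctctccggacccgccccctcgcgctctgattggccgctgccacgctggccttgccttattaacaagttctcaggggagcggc
Msx2: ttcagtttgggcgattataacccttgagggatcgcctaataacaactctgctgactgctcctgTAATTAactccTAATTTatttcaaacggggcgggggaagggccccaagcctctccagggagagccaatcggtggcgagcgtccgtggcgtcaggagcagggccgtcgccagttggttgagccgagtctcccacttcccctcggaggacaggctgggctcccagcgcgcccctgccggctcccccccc
Tcf7l2: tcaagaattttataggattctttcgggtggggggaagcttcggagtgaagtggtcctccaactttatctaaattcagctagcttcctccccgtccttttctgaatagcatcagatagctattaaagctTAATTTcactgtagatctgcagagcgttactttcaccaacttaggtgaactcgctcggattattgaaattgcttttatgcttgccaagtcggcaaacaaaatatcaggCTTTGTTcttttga
The Msx2 window held 2 matches to TAATTN and the Tcf7l2 window shown 1 of each motif, while the Msx1 window held neither. Another Tcf7l2 window, not shown, held neither motif, and 1 Lhx2 window, not shown, also held a match to CTTTGNT. Of all 32851 windows of this length in the table, 15.98% held CTTTGNT and 24.9% held TAATTN. The 2 motifs do not overlap in any window shown, and a match describes the letters only.

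Tcf7l1, the Wnt pathway repressor of the bulge, was found mainly outside the epithelium. Pericytes had 63.2 CPM in WT_LW against 53.7 in TLR9agonist_LW, lymphatic endothelial cells 49.9 and 42.6 CPM, endothelial cells 49.2 and 39.2 CPM and fibroblasts 18.6 and 14.8 CPM. The log2 ratios of fibroblasts, −0.32 (−0.53 to −0.11), and endothelial cells, −0.33 (−0.63 to −0.03), were close to those of their median genes (−0.28 and −0.35), and the intervals of pericytes (−0.49 to 0.02) and lymphatic endothelial cells (−1.03 to 0.57) included 0. Keratinocytes held 38 UMIs in WT_LW (3.64 CPM) and 30 in TLR9agonist_LW (0.997 CPM), at a log2 ratio of −1.87 (−2.61 to −1.14). Weighting each cell equally gave −3.28, and in interfollicular-type cells, which held 15 and 18 of these UMIs, the log2 ratio of −1.49 (−2.56 to −0.40) turned to 0.39 (−1.80 to 3.61) at like depth. The background in T and NK cells was 1.81 and 1.35 CPM, so the keratinocyte level in TLR9agonist_LW lay below this background. The bulge-like cells had 10 UMIs in WT_LW (17.7 CPM, 8.48 to 32.5) and 2 in TLR9agonist_LW, above the background in WT_LW only.

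Tcf7l2, its relative that activates Wnt targets with beta-catenin, was higher in the fibroblasts of TLR9agonist_LW. Fibroblasts had 65.8 CPM in WT_LW from 1096 UMIs and 91.2 CPM in TLR9agonist_LW from 3059 UMIs (log2 ratio 0.47, interval 0.37 to 0.57), while their median gene was at −0.28. Deep wound fibroblasts had 83.1 and 133 CPM (log2 ratio 0.68, interval 0.56 to 0.80), and upper wound fibroblasts 39.9 and 55.7 CPM (log2 ratio 0.48, interval 0.27 to 0.70). Both subsets had a higher level in TLR9agonist_LW, although the share of deep wound fibroblasts, where it is highest, was 43.6% of fibroblasts in WT_LW and 31.0% in TLR9agonist_LW. Thinned to 1500 UMIs, 8.37% (6.70 to 10.3) and 11.9% (10.6 to 13.3) of fibroblasts carried a Tcf7l2 UMI, against 0.442% and 0.658% of T and NK cells. Thinned to 3000 UMIs, the fibroblast shares were 16.2% in WT_LW and 21.5% in TLR9agonist_LW. Before thinning, fibroblasts had a median of 15824.5 UMIs in WT_LW and 12735.5 in TLR9agonist_LW. Thinning set the depth equal for these shares, and the part of depth in the difference of CPM levels is not given here.

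Endothelial cells had the highest Tcf7l2 level in WT_LW, 122 CPM, and 108 CPM in TLR9agonist_LW, where lymphatic endothelial cells had 111 CPM. Keratinocytes had 26.9 and 18.9 CPM (log2 ratio −0.51, interval −0.72 to −0.30), and −0.07 relative to the median gene. Within the 6 keratinocyte subsets the intervals of the log2 ratio all included 0, from −0.49 (−1.60 to 0.51) in bulge-like cells to 1.199 (−0.06 to 2.85) in wound-stress cells. The lower keratinocyte level was −5.30 CPM from subset shares and −2.73 CPM from levels within subsets. Bulge-like cells again had the highest level of the 6 subsets in WT_LW (69.0 CPM) and in TLR9agonist_LW (49.2 CPM). Over all cells the change of 7.92 CPM was 6.27 CPM within classes, of which fibroblasts gave 6.31 CPM, and 1.65 CPM from shares. In the share part fibroblasts gave 8.40 CPM and keratinocytes 3.41 CPM. Most other classes had negative share parts, the largest in macrophages and dendritic cells (−3.43 CPM), endothelial cells (−2.34 CPM) and Schwann cells (−2.31 CPM).

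**Figure D4:**
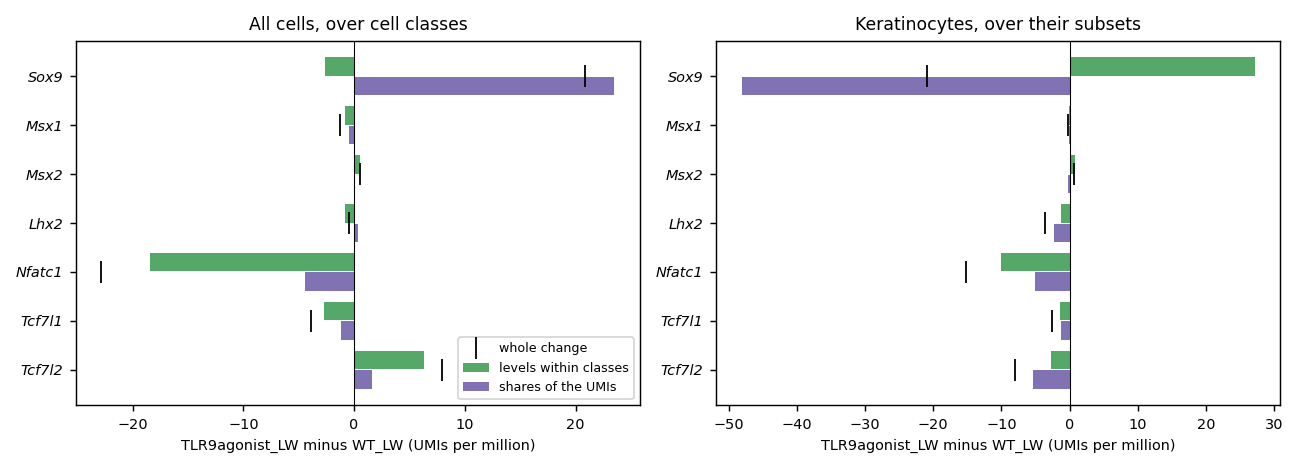
Change of each factor from WT_LW to TLR9agonist_LW (CPM, horizontal axis) over all cells (left) and within keratinocytes (right), split into the part from levels within classes or subsets (green) and the part from their shares of the UMIs (purple), with the whole change as a black tick. For Sox9 the share part makes the change over all cells positive, while within keratinocytes the 2 parts have opposite signs.

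Msx1 and Msx2 were rare and had their highest levels in pericytes, the contractile cells of the vessel wall. Pericytes had Msx1 at 18.4 CPM in WT_LW (96 UMIs) and 13.8 CPM in TLR9agonist_LW (53 UMIs), at a log2 ratio of −0.41 (−0.92 to 0.09). Endothelial cells had 14.9 and 7.73 CPM (log2 ratio −0.95, interval −1.61 to −0.33), where their median gene was at −0.35. Keratinocytes held only 7 and 14 Msx1 UMIs, at 0.67 and 0.47 CPM, against 0.22 CPM in the T and NK cells of each library. At this depth a difference of Msx1 in keratinocytes was not detectable, with an interval of −1.93 to 1.02 on the log2 scale.

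Msx2 was highest in pericytes too, at 11.3 CPM in WT_LW (59 UMIs) and 16.4 CPM in TLR9agonist_LW (63 UMIs), at a log2 ratio of 0.54 (0.01 to 1.08). Keratinocytes had 20 UMIs in WT_LW (1.92 CPM, 1.17 to 2.96) and 78 in TLR9agonist_LW (2.59 CPM, 2.05 to 3.23), at a log2 ratio of 0.43 (−0.29 to 1.22). The Msx2 UMIs were spread over 19 and 77 keratinocytes, of which 15 and 67 were interfollicular-type, and 1 UMI in each library lay in a bulge-like cell. Endothelial cells had 0 and 1 Msx2 UMIs, and a count of 0 allows up to 0.62 CPM when the limit is set at 3 UMIs (the exact interval ends at 0.77 CPM). Of this pair only Msx1 was above these limits in endothelium in both libraries. In pericytes, 11 of 71 cells with Msx1 also carried Msx2 in WT_LW and 6 of 41 in TLR9agonist_LW, against 6.87% and 9.88% of the pericytes without Msx1.

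Other genes of the same pathways were read from 3 lists, against the share of all genes past the same fold. In keratinocytes, 2.23% of 11356 genes with at least 50 UMIs were at least 2-fold higher in TLR9agonist_LW and 20.2% at least 2-fold lower. Of the 6 factors with at least 50 UMIs there, 0 were 2-fold higher and 3 were 2-fold lower (Lhx2, Tcf7l1 and Nfatc1). Their median log2 ratio was −0.79, against −0.52 for all genes tested. These counts rest on the widened gate, and under the first gate Nfatc1 (24.6 and 13.6 CPM) was less than 2-fold lower.

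Among 36 of 40 other follicle and epidermal transcription factors, 4 were at least 2-fold higher in keratinocytes (11.1%) and 13 at least 2-fold lower (36.1%), with a median of −0.46. Relative to the median gene the counts were 7 and 5, but the share of all genes past that limit is not given here. The 4 higher ones act in the differentiating epidermis. Prdm1 went from 21.4 to 171 CPM, Grhl3 from 27.3 to 93.8 CPM, Ehf from 101 to 302 CPM and Gata3 from 86.9 to 177 CPM. The 6 with the lowest log2 ratios were Irx4 (20.3 to 3.95 CPM), Gata6 (9.39 to 2.49 CPM), Foxc1 (22.6 to 6.51 CPM), Tfap2b (15.9 to 4.88 CPM), Nfib (190 to 60.5 CPM) and Barx2 (125 to 46.1 CPM). Foxc1 and Nfib are known regulators of follicle stem cells and Gata6 marks the upper follicle. Gata6 and Barx2 were also among the markers of the follicle-like gates, whose shares were lower in TLR9agonist_LW.

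TCF/LEF partners and Wnt target genes had 21 of 28 members tested (27 are in the tables), of which 0 were 2-fold higher and 5 were 2-fold lower (23.8%), with a median of −0.57. Relative to the median gene the counts were 1 and 1, again without a share of all genes to set beside them. The 5 were the Wnt receptor partner Lgr4 (17.2 to 5.98 CPM), the cofactor Bcl9l (27.5 to 12.1 CPM), the feedback inhibitor Axin2 (11.8 to 5.28 CPM) and the corepressors Tle1 (29.8 to 13.3 CPM) and Tle3 (61.5 to 29.7 CPM). Of 11 calcineurin and NFAT partners, 0 were 2-fold higher and 2 were 2-fold lower, Nfatc2 (5.85 to 1.63 CPM) and Nfatc3 (31.9 to 15.8 CPM), at a median of −0.44. The Wnt and NFAT lists thus stayed close to the background share of lower genes.

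In fibroblasts 3.72% of 12691 genes were at least 2-fold higher and 7.60% at least 2-fold lower, and none of the 5 factors with at least 50 UMIs passed either limit. The other follicle and epidermal transcription factors had 8 of 30 tested genes at least 2-fold higher (26.7%) and 5 lower (16.7%). The Wnt list had 1 and 1 of 23, and the NFAT list 0 and 1 of 11. Keratinocyte markers summed to 916 CPM in the fibroblasts of WT_LW and 1960 CPM in those of TLR9agonist_LW, and their part in these epidermal factors was not tested.

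Genes with the most similar profile were ranked by Pearson r of log2(CPM + 1) over 9 classes in both libraries (18 points, which share libraries and depth), among 13487 genes. For Sox9 they were Dnmt3l (r = 0.89), Cdh3 (0.89) and Polb (0.86), and for Lhx2 Efna3 (0.94), Slurp1 (0.93) and Chdh (0.92). Nfatc1 came with Gm28875 (0.91), C330007P06Rik (0.87) and March6 (0.87), Tcf7l1 with Gng11 (0.95), Tns2 (0.95) and Cdc42bpa (0.94), and Tcf7l2 with Rusc2 (0.95), App (0.93) and Slc35f5 (0.92). Msx1 was most like Flt1 (0.90) and Meox2 (0.89), and Msx2 most like Bcl2l15 (0.93), Ephx3 (0.92) and Scube3 (0.88). Among the 7 themselves the highest r was 0.66, between Msx1 and Tcf7l1, and Sox9 and Lhx2 had 0.52.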

How the data were processed

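Single-cell RNA of 2 libraries, 1 per group, was analysed. Files deposited by the authors hold unnormalized UMI counts of each gene in each barcode, made with Cell Ranger (4.0.0 in the file header). The submitters' processing notes also name fastp, Seurat and the build mm9, and the labels do not settle the version of the 10x chemistry. The epidermis and dermis were separated, dissociated, cleared of dead cells and recombined before loading.

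Barcodes under 500 UMIs or 300 genes, or over 15% mitochondrial UMIs, were dropped (1357 of 12800 and 545 of 13751). Of the rest, the 9.16% and 10.6% with the highest Scrublet scores (scanpy 1.11.5) were removed as doublets. Cells were gated one by one on mean log expression of 11 marker lists and keratinocytes on 8 subset lists, each needing 3 detected markers, and 8.70% of cells stayed ungated. After Sox9-rich and Lhx2-rich cells had been seen outside the gate, the keratinocyte score was changed to the higher of the scores with and without markers of epidermal layers. Of the keratinocytes, 16.2% lay within 0.05 of a second subset list.

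CPM, ratios and splits were computed from summed UMIs (numpy 2.4.6, scipy 1.17.1). Splits used the mean share and mean level of the libraries as weights, and median-gene values used genes with at least 200 UMIs. Ratios, intervals and splits were tested on simulated data. The 7 members, the lists and the markers were chosen with earlier results of these data known. Genes named beside the 7 were list genes past 2-fold in keratinocytes (up to 6 per list and direction) and the 3 genes most similar to each member, of which 1 is not reported here. Alternatives were a stricter filter, doublets kept, Leiden clusters, a stricter gate, equal weight per cell and median-gene scaling, and, chosen after seeing the data, a keratinocyte score from all markers only and cells of like depth.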

Additional observations from a re-analysis of the deposited data

Results flagged for a closer look

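The log2 ratio of Sox9 differed in sign between cell types, from 3.34 in lymphatic endothelial cells to −0.62 in bulge-like cells, a difference of 3.96 that was not tested. Lymphatic endothelial cells had 4 Sox9 UMIs in 73 cells of WT_LW and 46 UMIs in 14 of 56 cells of TLR9agonist_LW, at 6.89 and 69.9 CPM. One TLR9agonist_LW cell held 12 of them, and without it the level was 52.4 CPM. In TLR9agonist_LW, keratinocyte markers summed to 1715 CPM in the lymphatic cells with Sox9 and to 2077 CPM in those without, and lymphatic markers to 29648 and 30611 CPM.

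Tcf7l2 had a log2 ratio of 0.47 in fibroblasts and −0.51 in keratinocytes, a difference of 0.98 that was not tested.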

How the results depend on the processing

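The 10 alternative settings gave 401 values of 75 results, of which 341 moved by less than counting error (for counts of genes, by less than 1.5 times), 55 moved further with the same sign or from a value whose interval included 0, and 5 changed sign. The Sox9 log2 ratio within all keratinocytes stayed between −0.31 and −0.15 with a stricter filter, doublets kept, Leiden clusters, a stricter gate, equal weight per cell and cells of like depth, was −0.0016 with the score from all markers only and 0.21 relative to the median gene. In interfollicular-type cells it stayed above 0 under each alternative, with 0.81 from all markers only, 0.77 at equal weight and 1.01 relative to the median gene as the values that moved. The within-class and share parts of Sox9 over all cells were −0.078 and 20.9 CPM with the score from all markers only. Signs turned for Nfatc1 in fibroblasts (0.0065 relative to the median gene), for Tcf7l1 in interfollicular-type cells (0.39) and Sox9 in wound-stress cells (−0.0069) at like depth, and for Sox9 in cycling cells (0.019) with all markers only. Weighting each cell equally moved Tcf7l1 in keratinocytes from −1.87 to −3.28. Counting list genes from 10 UMIs upwards moved the Wnt genes 2-fold lower from 5 to 9. The number tested and the share of all genes at that limit are not given here. In Lhx2, Msx1 and Msx2, and in Tcf7l1 within keratinocytes, depth limits what can be seen, since each rests on under 100 UMIs there. No paired analysis was possible because each group is 1 library.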
